A study of Homo sapiens with 38 samples.

Results

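In NCI-H661 (H661) lung cancer cells, 39813 of 59341 MTF2 domains had no RING1B region on them, and these 39813 domains, 67.1% of the total, are described here. An MTF2 domain was a stretch enriched for MTF2 in CUT&RUN, called by EPIC2 at a false discovery rate (FDR) below 0.05 and a log2 fold over IgG above 1. It was counted when the domains of both hairpin lines overlapped by at least 25% of the shorter, and the overlapping domains were merged. A domain was placed without RING1B when it shared no base with any EPIC2 domain or MACS2 peak of RING1B in either control library. The remaining 19528 domains, 32.9% of all, carried RING1B and served for comparison. The presence of MTF2 and the absence of RING1B were thus selected on, and neither is a finding.

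Polycomb repressive complex 2 (PRC2) methylates lysine 27 of histone H3, and MTF2 (PCL2) is one of its accessory subunits. It reads CpG-rich DNA through a winged helix and histone H3 through its Tudor domain, and so helps to bring PRC2 to unmethylated CpG islands. RING1B is the ubiquitin ligase of PRC1, the other main Polycomb complex, which ubiquitinates histone H2A and meets PRC2 at the CpG-island promoters of developmental genes.

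H661, derived from a large cell lung carcinoma, makes DPPA2 and DPPA4 itself, partner proteins otherwise found mainly in early embryos and germ cells. Unmodified (parental) cells were profiled, as were 2 sublines holding a doxycycline-inducible hairpin against DPPA4 (shDPPA4) or hairpins against DPPA2 and DPPA4 (shDPPA2+4), after 7 days with water (control) or 2 µg/mL doxycycline. MTF2, EP300 and PCGF1 were profiled in the control arms, and RING1B and DPPA4 in both arms. NCI-H1299 (H1299), another non-small cell lung cancer line, expressed DPPA2 with a Flag tag and DPPA4 with a V5 tag from inducible constructs, and was profiled on day 7 of 2 µg/mL doxycycline with 6 antibodies in 2 replicates each. Both control arms carried the uninduced hairpins, so the MTF2 domains come from hairpin-bearing and not from parental cells.

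H661 had 1 library per antibody and arm, so no value there has a replicate check, and intervals given for shares are exact (Clopper-Pearson) 95% intervals that cover counting error only. The kept EPIC2 domains held 4670751 and 6850681 reads in the MTF2 libraries (shDPPA4 and shDPPA2+4), against 1540857 and 864120 in the RING1B control libraries. Kept domains numbered 105640 and 101461 for MTF2 and 42613 and 31502 for RING1B. A RING1B level too low to be called and no RING1B cannot be told apart in lists of regions. No library of a histone mark, of another PRC2 subunit or of cells without MTF2 was analysed here.

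The sequences below show CpG-rich stretches of leading domains, and not the usual content of a member, whose richest 200 bases held a median of 6 CpG (90th percentile 11). For 8 leading domains without RING1B over 4 kb long, and for the RING1B-bearing domain at the SALL3 promoter as a contrast, the 200 bases richest in CpG outside protein-coding exons are printed from hg38, plus strand, with each CpG in capitals.
PROKR2 promoter, chr20:5316961-5317160: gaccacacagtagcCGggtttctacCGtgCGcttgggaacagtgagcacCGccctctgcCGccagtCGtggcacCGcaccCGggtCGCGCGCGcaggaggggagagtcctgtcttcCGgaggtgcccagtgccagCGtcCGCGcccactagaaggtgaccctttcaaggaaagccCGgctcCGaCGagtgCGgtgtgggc
ADCYAP1R1 promoter, chr7:31052051-31052250: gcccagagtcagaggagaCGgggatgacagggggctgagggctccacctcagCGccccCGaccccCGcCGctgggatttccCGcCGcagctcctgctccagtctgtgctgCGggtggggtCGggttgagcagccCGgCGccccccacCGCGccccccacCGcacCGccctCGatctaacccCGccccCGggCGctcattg
LRATD1 promoter, chr2:14632381-14632580: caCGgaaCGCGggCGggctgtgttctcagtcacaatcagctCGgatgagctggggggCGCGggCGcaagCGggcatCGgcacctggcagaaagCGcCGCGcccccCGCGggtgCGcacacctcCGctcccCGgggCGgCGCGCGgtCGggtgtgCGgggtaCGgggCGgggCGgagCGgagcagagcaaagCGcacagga
PTPRN2 intron, chr7:158273371-158273570: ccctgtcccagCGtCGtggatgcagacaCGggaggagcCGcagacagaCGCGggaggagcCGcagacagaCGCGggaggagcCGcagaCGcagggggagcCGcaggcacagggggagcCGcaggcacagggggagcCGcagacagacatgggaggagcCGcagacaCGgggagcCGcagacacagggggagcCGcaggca
DPP6 intron, chr7:154750341-154750540: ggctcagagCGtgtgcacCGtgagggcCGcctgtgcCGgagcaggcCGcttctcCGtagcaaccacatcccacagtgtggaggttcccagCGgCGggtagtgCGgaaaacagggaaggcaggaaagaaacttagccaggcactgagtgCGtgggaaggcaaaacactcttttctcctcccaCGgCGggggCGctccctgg
lncRNA promoter, MYT1L nearest, chr2:2708661-2708860: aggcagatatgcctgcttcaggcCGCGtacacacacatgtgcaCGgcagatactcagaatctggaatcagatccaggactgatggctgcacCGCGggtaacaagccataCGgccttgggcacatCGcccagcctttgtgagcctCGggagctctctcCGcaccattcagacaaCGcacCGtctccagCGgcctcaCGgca
PIEZO2 promoter, chr18:11149591-11149790: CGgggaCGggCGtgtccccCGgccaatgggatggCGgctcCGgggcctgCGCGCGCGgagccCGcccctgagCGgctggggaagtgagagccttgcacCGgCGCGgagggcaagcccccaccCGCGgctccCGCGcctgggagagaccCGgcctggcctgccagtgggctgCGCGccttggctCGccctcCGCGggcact
intergenic, BRD1 nearest, chr22:49266471-49266670: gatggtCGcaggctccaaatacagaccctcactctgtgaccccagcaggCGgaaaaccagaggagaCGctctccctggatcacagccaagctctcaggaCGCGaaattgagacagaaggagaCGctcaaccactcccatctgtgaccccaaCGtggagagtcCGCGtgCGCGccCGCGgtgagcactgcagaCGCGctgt
SALL3 promoter, with RING1B, chr18:78979581-78979780: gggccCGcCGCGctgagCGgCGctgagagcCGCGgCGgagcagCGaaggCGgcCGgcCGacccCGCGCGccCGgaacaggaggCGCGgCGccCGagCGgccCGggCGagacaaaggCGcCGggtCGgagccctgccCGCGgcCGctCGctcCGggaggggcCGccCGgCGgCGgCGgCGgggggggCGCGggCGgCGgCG
The windows without RING1B held between 13 and 29 CpG. The SALL3 window held 42, more than most RING1B-bearing domains, whose richest 200 bases had a median of 22 and a 90th percentile of 35. The 3 windows at the promoters of PROKR2, ADCYAP1R1 and LRATD1 held 20, 19 and 29, and the PIEZO2 window held 25. The PTPRN2 window repeats a short unit several times. Away from protein-coding promoters, the DPP6, MYT1L and BRD1 windows held 13 to 15, although each was the richest non-exonic stretch of a domain of 18800 to 29300 bp. The label lncRNA promoter is that of the whole MYT1L-nearest domain and not of its printed window.

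Most domains without RING1B were poor in CpG. Their richest 200 bases held a median of 6 CpG, against 22 in RING1B-bearing domains, and their median density was 1.09 CpG per 100 bases against 5.00 where RING1B was present. The genome as a whole has 1.00 per 100 bases. Median GC content was 44.2% without RING1B, 55.2% with it and 40.9% over the genome. A window of 10 or more CpG lay in 6681 domains without RING1B, or 16.8% (interval 16.4% to 17.2%), and in 72.3% of those with RING1B, where all MTF2 domains gave 35.0%. The plot of CpG counts shows 1 mode near 5 CpG without RING1B and a broad second mode near 30 with it.

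**Figure D1:**
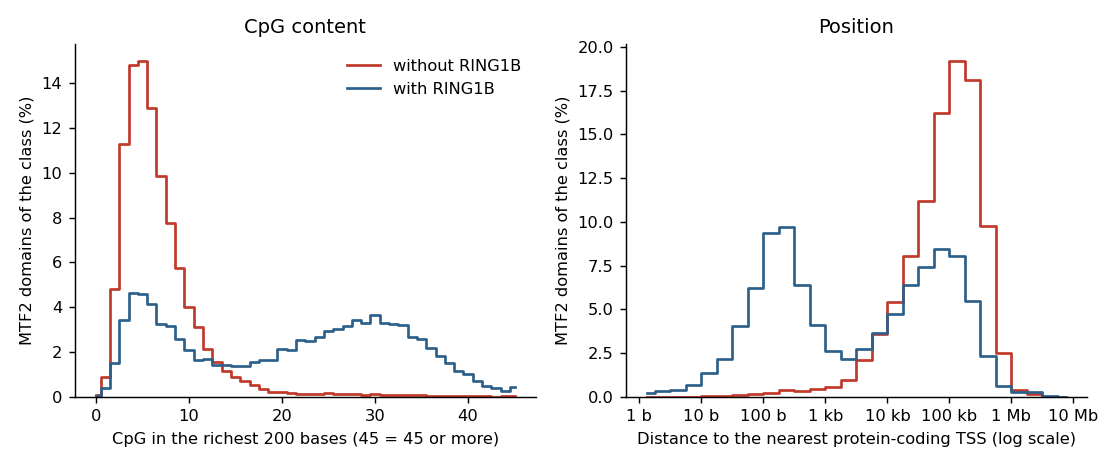
Left, the CpG count of the richest 200 bases of each MTF2 domain; right, the distance from the domain's middle to the nearest protein-coding transcription start site (TSS) on a log scale; y axes, percent of the 39813 domains without RING1B (red) or of the 19528 with RING1B (blue). Domains without RING1B have a median of 6 CpG and lie a median of 101 kb from a TSS, against 22 CpG and 3.46 kb with RING1B.

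The share of MTF2 domains lacking RING1B fell with CpG content. It was 86.6% of 7863 domains with 0 to 3 CpG in the richest 200 bases and 84.2% of those with 7 to 9. From there it went to 74.9% at 10 to 14, 41.4% at 15 to 19, 9.40% at 20 to 29 and 5.01% at 30 or more. Density of MTF2 reads, the reads in excess of scaled IgG per kb, followed the same order. Ranked by the lower of the density ranks of both lines, RING1B was lacking on 87.6% of the lowest decile and 6.55% of the highest. Of the 5935 domains in the highest decile, 196 had fewer than 10 CpG, and 114 of these (58.2%) lacked RING1B, against 4.79% of the 5739 with 10 or more. These shares restate the choice of members by other measures and are given as a description. MTF2 density, CpG content and the chance of a call move together here, and their separate parts were not tested.

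**Figure D2:**
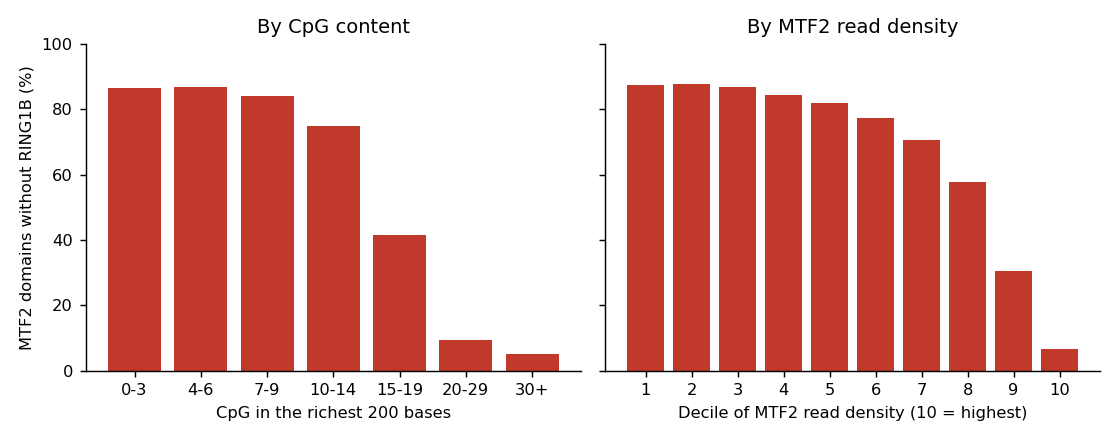
Percent of MTF2 domains without RING1B (bars), by CpG count in the richest 200 bases (left) and by decile of MTF2 read density, the lower rank of both lines (right). The share is 86.6% at 0 to 3 CpG and 5.01% at 30 or more, and 87.6% in the lowest and 6.55% in the highest density decile.

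MTF2 signal on these domains was modest. A domain without RING1B held a median of 23 MTF2 reads in the shDPPA4 line (10th to 90th percentile 11 to 87) and 36 in the shDPPA2+4 line (16 to 126), where its IgG control gave 1 and 2. Domains with RING1B held 56 and 79. Excess density was 15.6 and 22.0 reads per kb without RING1B, and 31.5 and 41.6 with it. The log2 fold over IgG did not follow this order, with medians of 3.39 and 2.72 without RING1B and 3.16 and 2.68 with it. Densities in the 2 lines had a Spearman correlation of 0.42 over the 39813 domains and 0.88 over the RING1B-bearing ones, as a description in which the 2 values of a domain share its merged ends. MACS2, which calls narrow peaks, found MTF2 in both lines on 10438 domains without RING1B, or 26.2%, where all MTF2 domains gave 39.5%. On 48.9% it found no MTF2 peak in either line.

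The share of domains that MACS2 also called varied with length. The median length was 1400 bp without RING1B (10th to 90th percentile 700 to 3600) and 1500 bp with it (600 to 5100). A MACS2 peak of MTF2 in both lines lay on 23.5% of the 523 domains under 500 bp, on 4.96% of the 8858 domains of 500 to 1000 bp, on 13.6% of those of 1 to 2 kb and on 96.7% of the 1761 domains of 5 kb or more. The long domains were also richer in CpG, since 53.4% of them had a window of 10 or more CpG, against 9.09% of the 500 to 1000 bp class. Domains of 10 kb or more numbered 213. All domains without RING1B together covered 2.6% of the genome's known bases.

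At the limit of the rule, 319 domains had a RING1B region within 100 bp but no shared base, and 296 RING1B-bearing domains shared 100 or fewer bases. Both sets had a median length of 1200 bp and a median of 6 CpG in the richest 200 bases. Their median reads were 22 and 33 just inside the rule, and 22 and 34 just outside it. Across all members the nearest RING1B region lay a median of 22.5 kb away, with 6.10% within 1 kb and 18.5% beyond 100 kb. Density of MTF2 reads hardly varied with this distance, from 16 and 21.1 reads per kb within 1 kb to 14.4 and 23.1 beyond 100 kb.

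Domains without RING1B lay away from promoters. Only 1061 of them, or 2.66% (interval 2.51% to 2.83%), touched the TSS ± 1500 bp of a protein-coding gene, against 49% of RING1B-bearing domains and 17.9% of all MTF2 domains. Among the domains that MACS2 also called for MTF2 in both lines the share was 5.03%. A further 3.38% touched the promoter of a long noncoding RNA (lncRNA). Among the rest, 7.94% touched a protein-coding exon, 33.0% lay in introns alone, 14.8% lay in lncRNA genes and 38.2% were intergenic. With RING1B the intronic share was 12.0% and the intergenic share 18.3%. The median distance to a protein-coding TSS was 101 kb without RING1B and 3.46 kb with it, and 19979 domains (50.2%) were more than 100 kb away. Members at promoters were CpG-richer than the others, with a median of 13 CpG and 57.7% holding 10 or more, against 5 and 12.2% in introns. Their density was 19.8 and 29.4 reads per kb, against 15 and 21.6 in introns.

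Along the genome the domains gathered in a small part of it. Of 3044 windows of 1 Mb, 1032 held none, and the 273 richest (8.97%) held 50% of the domains. RING1B-bearing domains needed 538 windows for the same share. Windows with 50 or more domains without RING1B numbered 250 and held 47.3% of them. With RING1B, 3 windows reached this cut, but that class is smaller (19528 against 39813 domains). A fixed cut therefore does not compare the classes alike. These 250 windows had a median of 4 protein-coding TSS each, against 5 in windows with 1 to 49 domains and 2 in windows with none. The means were 5.28, 6.84 and 6.39, a different order. The 3044 windows reach beyond the 2911224070 known bases, so some lie over gaps in the sequence. The 250 windows held a median of 11 RING1B-bearing domains, against 6 and 1.

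**Figure D3:**
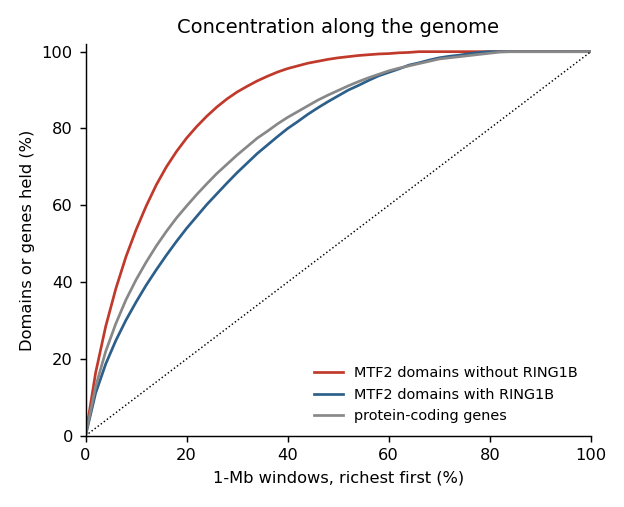
Cumulative percent of MTF2 domains without RING1B (red), MTF2 domains with RING1B (blue) and protein-coding gene starts (grey) against percent of 1-Mb windows, each ranked from its richest window; the dotted line is an even spread. The richest 8.97% of windows hold 50% of the domains without RING1B, and the domains with RING1B need 17.7% of windows.

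The richest window, on chromosome 2 at PXDN (peroxidasin), held 150 domains without RING1B and 12 with it. Its neighbour, at 2000001 to 3000000, held 139 and 2, and contains the TSS of MYT1L, a zinc finger protein of neurons. Next came windows on chromosome 5 at MSX2, a homeobox gene (137 and 24), on chromosome 18 at SALL3, a spalt-like zinc finger gene (136 and 8), and on chromosome 22 at TAFA5 (135 and 9). All of these genes but MYT1L had an MTF2 domain with RING1B at the promoter. Chained at gaps of at most 10 kb with no RING1B region between, 6260 domains (15.7%) fell in 434 runs of 10 or more, with a median span of 57.9 kb. The run with most domains, chr10:131015301-131289600, had 48 over 274 kb at TCERG1L and covered 65.9% of it. Others lay at KCNA5 (43 domains over 171 kb), in OPCML (41 over 208 kb) and upstream of SALL3 (39 over 202 kb).

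By chromosome, density ranged from 4.04 domains per Mb on X and 6.90 on chromosome 4 to 19.3 on chromosome 10 and 19.7 on chromosome 11. Chromosome 19, the most gene-dense, had 8.71 per Mb without RING1B and 9.98 with it, and was the only chromosome where RING1B-bearing domains were the more frequent. IgG reads in the domains were 1.70 and 2.61 per kb on chromosome 19 and 0.676 and 1.17 on X, the highest and the lowest in both lines. The part of copy number in these densities was not tested.

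A member lay in the span of 2555 of 19970 protein-coding genes (12.8%), and these genes were long, with a median of 89.4 kb against 27.5 kb for all genes. Of the 322 genes of 500 kb or more, 68.9% held at least 1 domain without RING1B, against 7.77% of genes of 10 to 50 kb. A longer gene has more bases on which a domain can fall. The rate per 100 kb was 2.08 against 0.661, but it did not rise steadily with length. It was 1.58 in genes under 10 kb, 0.623 at 50 to 100 kb and 1.78 at 200 to 500 kb. OPCML, which encodes a GPI-anchored cell adhesion protein of neurons, held most, with 178 in 1118 kb. DLGAP2, a postsynaptic scaffold protein, held 146 in 971 kb, RBFOX1, a neuronal splicing factor, 130 in 2474 kb, and FRMD4A and NAV2 held 108 each. Per 100 kb this was 15.9 in OPCML, 15 in DLGAP2 and 5.26 in RBFOX1, where all protein-coding genes gave 1.31. In DLGAP2 and NAV2 the promoter itself carried an MTF2 domain with RING1B. In OPCML, RBFOX1 and FRMD4A it carried a domain without RING1B. Among the 207 genes of 200 kb or more with at least 20 members, 158 (76.3%) had an MTF2 domain with RING1B at the promoter, against 589 (77.1%) of the 764 genes of that length that held none. A RING1B region lay in the promoter window of 75.4% of the former and 89.1% of the latter.

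A promoter carried a domain without RING1B in 987 of 19970 protein-coding genes (4.94%), against 10347 (51.8%) with a RING1B-bearing MTF2 domain, and 101 genes had both. A RING1B region of any kind lay in the promoter window of 132 of the 987. By gene family the shares differed widely. Family members often lie side by side, so that neither genes nor domains are independent, and counts stand beside the 4.94% without a test.

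Keratins and keratin-associated proteins, the filaments of epithelia and the matrix proteins of hair, had a member at 54 of 149 promoters (36.2%), through 61 domains. A RING1B-bearing MTF2 domain was at 6 (4.03%). Of the 55 keratin genes, 11 of 27 on chromosome 12 and 13 of 28 on chromosome 17 had one. Of the keratin-associated genes it was 28 of 34 on chromosome 17, 2 of 11 on chromosome 11 and 0 of 49 on chromosome 21. These domains were CpG-poor, with a median of 8 in the richest 200 bases, and 18 of 61 held 10 or more. KRT1, of the differentiated epidermis, had 25 and 33 MTF2 reads over 1300 bp (IgG 1 and 2), KRT2, of the upper epidermis, 24 and 21 (0 and 3), and KRT19, of simple epithelia, 27 and 36 (3 and 1). The KRT19 domain had 35 CpG in its richest window, and those of KRT1 and KRT2 had 6. KRT5, of basal cells, had 68 and 70 reads over 2100 bp (0 and 5).

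Receptors for glutamate and GABA, the main fast transmitters of the brain, had the same share, 17 of 47 (36.2%), and another 17 promoters carried MTF2 with RING1B. Unlike at the keratins, 16 of the 19 domains involved held a window of 10 or more CpG, with a median of 25. GABRA2 had 174 and 362 reads over 3800 bp (IgG 5 and 7). GABRA5 had 20 and 35 over 1300 bp (2 and 1) and GABRB1 36 and 74 over 2500 bp (3 and 6). All 3 are subunits of the GABA-A receptor.

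Potassium channels, which set the resting potential, followed with 18 of 95 (18.9%) without RING1B and 51 (53.7%) with it. KCNA5 had 259 and 408 reads over 6200 bp (IgG 7 and 10), KCNC2 158 and 266 over 4900 bp (8 and 7), and KCNA4 43 and 51 over 1800 bp (2 and 1). All are voltage-gated. Cadherins and non-clustered protocadherins, which join cells, had 6 of 35 (17.1%). CDH13 had 229 and 424 reads over 3300 bp (1 and 7) and CDH11 297 and 474 over 5000 bp (6 and 8). CDH18 had 9 and 48 over 1200 bp (1 and 5), a large difference between the lines. Cytochromes P450 had 7 of 56 (12.5%), of which the CYP2A13 domain held 318 and 528 reads over 4700 bp (4 and 13). CYP11B1 had only 11 and 40 over 1200 bp (0 and 0). The longest domain at CYP11B2 had 45 and 45 over 2000 bp (2 and 2).

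Olfactory receptors were close to all genes, at 22 of 413 (5.33%), but only 2 (0.484%) carried MTF2 with RING1B. Solute carriers had 17 of 337 (5.04%), sodium and calcium channels 2 of 40 (5.00%), collagens 2 of 44 (4.55%) and zinc finger genes named ZNF 10 of 508 (1.97%). Among small lists, the one named neuroendocrine had 4 of 16 (CALCA, CHGA, POU2F3 and SCG2). POU2F3 is also counted with the homeobox genes below, and not every gene of the list is a strict neuroendocrine marker. An MTF2 domain with RING1B lay at 14 of the 16 promoters, those of CALCA and POU2F3 among them. A RING1B region itself lay in 13 of the 16 promoter windows, and not in that of CALCA. CHGA, the granule protein chromogranin A, had 17 and 23 reads over 500 bp (0 and 2). PAX genes had 2 of 9, with PAX1 at 413 and 657 reads over 9300 bp (3 and 14). PAX4 had 87 and 148 over 3700 bp (3 and 10). T-box genes had 2 of 17, TBX22 and TBX5, and the TBX5 promoter also carried MTF2 with RING1B. Counts of 1 to 4 such as these carry little weight.

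No member lay at a promoter of the 41 Polycomb subunits (37 had MTF2 with RING1B), the 39 HOX genes (23), the 29 Wnt ligands and frizzled receptors (25), the 53 clustered protocadherins (2), the 80 ribosomal proteins (34), the 39 proteasome subunits (22), the 25 pluripotency genes (12) or the 20 immune markers (1). Other developmental families ranged from below to above the 4.94% of all genes. Members lay at 1 of 51 FOX genes (1.96%, FOXD4L1), 3 of 82 LHX, NKX and other homeobox genes (3.66%, NKX2-6, POU2F3 and POU3F4) and 1 of 19 SOX genes (5.26%, SOX1), beside the PAX (22.2%) and T-box (11.8%) genes above. The promoters of NKX2-6 and POU2F3 also carried MTF2 with RING1B. RING1B-bearing domains lay at 40 FOX, 69 homeobox and 12 SOX genes.

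**Figure D4:**
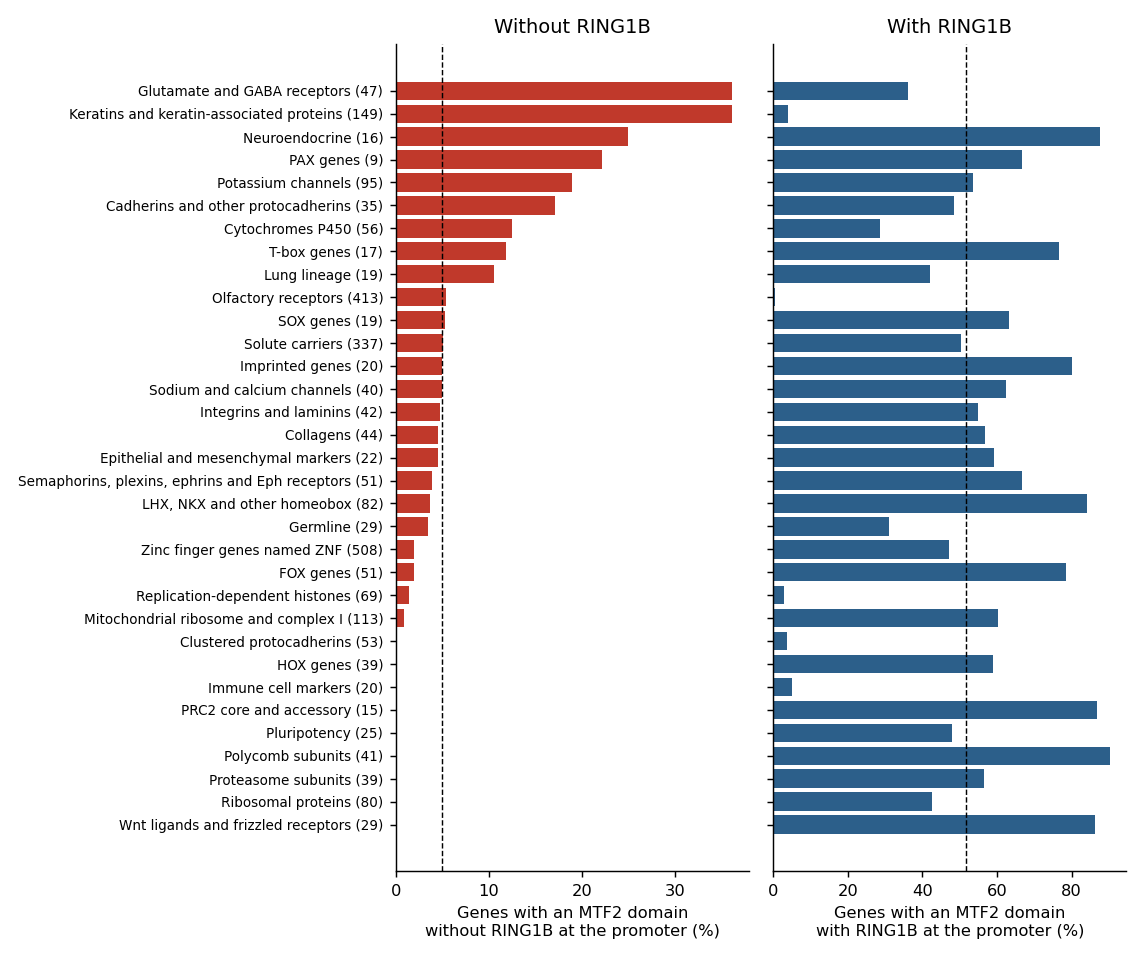
Percent of the genes of each list (number of genes in brackets) with an MTF2 domain without RING1B (left, red) or with RING1B (right, blue) at the TSS ± 1500 bp; dashed lines mark all protein-coding genes, 4.94% and 51.8%. The x axes differ in range. Glutamate and GABA receptors and keratins stand at 36.2% on the left, and keratins at 4.03% on the right.

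The members with the densest MTF2 signal at promoters fell into a repeated family and single-copy genes. The first 3 were at USP17L23, USP17L17 and USP17L13, near-identical deubiquitinase genes of a tandem array on chromosome 4. Reads of such copies cannot be placed with certainty. The USP17L23 domain, 400 bp, held 226 and 224 reads against 6 and 7 of IgG. Then came PABPC1L2B on X (35 and 45 reads over 300 bp), of a duplicated gene pair, PROKR2, the prokineticin receptor (506 and 814 over 5400 bp, IgG 10 and 11), and FAM135B on chromosome 8 (461 and 604 over 5000 bp, IgG 8 and 7). SLC44A3, a choline transporter-like protein, had 72 and 93 over 800 bp (1 and 0) and ADCYAP1R1, the PACAP receptor, 421 and 618 over 4700 bp (7 and 13). LRATD1 had 564 and 935 over 6600 bp (4 and 9), and CADPS, which primes dense-core vesicles for release, 523 and 927 over 6600 bp (4 and 5). With exons included, the richest 200 bases of these last 6 held 28 to 40 CpG, so that the strongest promoter members outside duplicated genes were CpG-rich. Their nearest RING1B region lay between 8.21 kb (PROKR2) and 923 kb (LRATD1) away. In the doxycycline RING1B library of the shDPPA4 line, a domain was called on PROKR2, SLC44A3, ADCYAP1R1 and LRATD1, and in the shDPPA2+4 line on PROKR2.

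Inside genes, the densest was chr7:158271201-158277100 in an intron of PTPRN2, a protein of dense-core vesicles, with 1366 and 1766 reads (IgG 10 and 17), 0.7 kb from a RING1B region. The next 3 lay in LPA, whose kringle exons are repeated many times, with 124 and 147, 54 and 63, and 31 and 58 reads over 300 to 600 bp. A 100 bp domain in an exon of FBRSL1 held 9 and 16. The last, chr7:154741901-154760700, reached an exon of DPP6, a subunit of neuronal potassium channels, with 1686 and 2467 reads over 18800 bp (IgG 19 and 44).

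Of the 6 densest intergenic members, 2 lay on the short arm of chromosome 21, where ribosomal RNA gene copies are found, at chr21:8234001-8234700 and chr21:8228501-8228900. Their 634 and 726 reads, and 120 and 181, stood against 77 and 82, and 14 and 25 of IgG. The other 4 were on chromosome 8, of which 3 lay within 40 kb of each other between CA2 and PSKH2. These 3 held 55 to 247 and 84 to 342 reads over 200 to 1000 bp, against 1 to 14 and 4 to 16 of IgG. Whether their reads can be placed with certainty was not tested. The fourth lay 15 kb from ZNF707. None of the 6 held more than 4 CpG in its richest 200 bases.

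The longest member, chr2:2699401-2728700, spanned 29300 bp, 383 kb from the TSS of MYT1L and at the promoter of a lncRNA, and held 1313 and 1596 reads (IgG 45 and 40). Then came chr18:11137001-11164800 at the promoter of PIEZO2, a mechanosensitive channel (27800 bp, 834 and 1314 reads, IgG 47 and 71), and chr22:49266401-49292500, intergenic (26100 bp, 1665 and 2260, IgG 31 and 36). The other two were 24800 bp each, chr10:1512601-1537400 in ADARB2 (1411 and 1729, IgG 30 and 38) and chr5:2455701-2480500, 284 kb from IRX2 (843 and 1190, IgG 70 and 107). All 5 had MACS2 peaks of MTF2 in both lines.

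Other factors were rarely found on these domains. EP300, a histone acetyltransferase of active promoters and enhancers, had a domain on 125 of them in the shDPPA4 line (0.314%, interval 0.261% to 0.374%; 15.1% of all MTF2 domains) and on 180 in the shDPPA2+4 line (0.452%, 0.389% to 0.523%; 16.0%). Both lines had it on 42 (0.105%, 0.0760% to 0.143%), against 40.5% of RING1B-bearing and 13.4% of all MTF2 domains. With RING1B taken from MACS2 peaks alone the share in both lines was 0.707%, and with EP300 taken from MACS2 peaks 0.0477%. PCGF1, a subunit of a variant PRC1, was on 0.440% and 0.382%, where all MTF2 domains gave 8.01% and 7.75%. PCGF1 and RING1B can belong to 1 complex, so its low share is close to the rule itself. DPPA4 in the control arms was on 1.52% and 0.796% (all MTF2 domains, 21.7% and 20.0%). In parental cells DPPA2 was on 0.598% (15.7%) and DPPA4, by the N-terminal antibody, on 0.392% (16.3%). The RING1B-bearing domains with which these shares compare were richer in CpG. Weighted to the CpG density of the domains without RING1B, they carried EP300 on 10.8% and 11.4% (unweighted, 45.4% and 47.6%) and DPPA4 of the control arms on 14.9% and 11.6% (62.7% and 59.1%). No domain of any of the 26 other libraries lay on 34626 domains without RING1B (87.0%), against 5.89% of those with RING1B and 60.3% of all MTF2 domains. The 26 include the libraries of PCGF1 and of RING1B with doxycycline, so part of this contrast is close to the rule.

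**Figure D5:**
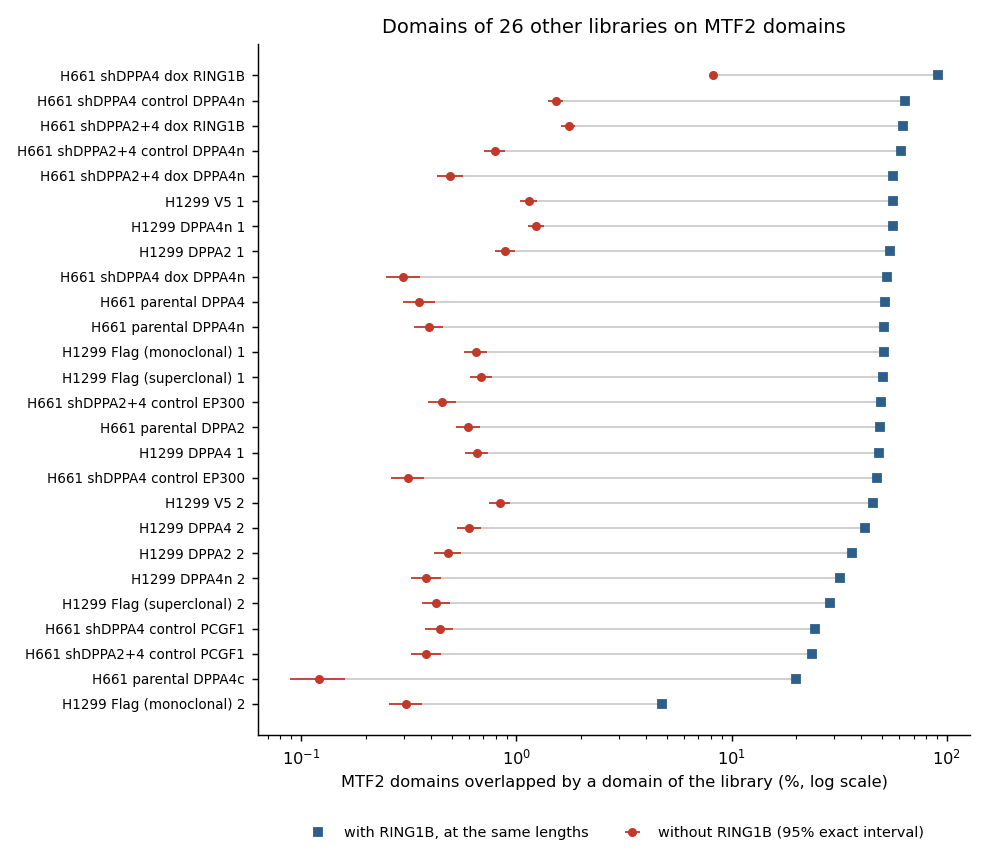
Percent of MTF2 domains overlapped by at least 25% of the shorter by an EPIC2 domain of each of 26 other libraries (x axis, log scale), for domains without RING1B (red, with exact 95% intervals) and with RING1B at the length deciles of the former (blue, no interval drawn). Numbers after H1299 antibodies are replicates. Every library lies lower without RING1B, from 0.121% to 8.20%, against 4.75% to 90.9%. With weights to CpG density in place of length, the shares with RING1B are 1.10% to 82.0% (not drawn). These weights do not make CpG content equal.

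The 42 domains with EP300 in both lines were unlike the rest. They were short, with a median of 650 bp, had a median of 29 CpG in the richest 200 bases, and 26 of them (61.9%) touched a promoter. By MTF2 density the first 3 and the fifth lay on the short arm of chromosome 21. The first 3 held 205 and 252, 56 and 62, and 90 and 100 reads. Their IgG reads were 22 and 21, 2 and 6, and 9 and 10. Whether reads there can be placed with certainty was not tested. The fourth was at TAPT1 (chr4:16225701-16228200, 179 and 250 reads, IgG 4 each) and the next at RXRA, the retinoid X receptor (26 and 49 reads, IgG 0 and 2). These genes were named after their values had been seen. DPPA4 was on 34 of the 42 in both control arms. DPPA4 was in both control arms on 295 members (0.741%, against 19.8% of all MTF2 domains). These 295 were alike, with a median of 28 CpG, 56.3% at promoters and a median length of 800 bp. Of the 73 members with both DPPA2 and DPPA4 in parental cells (0.183%, against 13.8% of all MTF2 domains), 69 were among these 295.

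Doxycycline RING1B libraries gave domains on part of the members, unequally in the 2 lines. In the shDPPA4 line 3265 members (8.20%) met a RING1B domain with doxycycline, where all MTF2 domains gave 35.4%. In the shDPPA2+4 line it was 695 (1.75%), where all gave 21.9%. In both lines it was 316 (0.794%), where all gave 20.8%. The doxycycline library of the shDPPA4 line had more EPIC2 domains than its control, 61213 against 42613, and that of the shDPPA2+4 line fewer, 27192 against 31502. MACS2 called fewer RING1B peaks with doxycycline in both lines, 18451 against 29812 in the shDPPA4 line and 10496 against 34551 in the shDPPA2+4 line, so the callers went opposite ways in the shDPPA4 line. With doxycycline its peaks met 16 (0.0402%) and 32 (0.0804%) of the members. Being without RING1B in the controls was the rule, so a share above 0 with doxycycline is not a gain. Members near RING1B met it most, with 27.3% of those within 1 kb in the shDPPA4 line and 1.92% of those beyond 100 kb.

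H1299 libraries had no part in choosing the domains, and the difference was tested there. Its sign could be foreseen, since the classes already differed in CpG content and in DPPA4 of H661. Antibodies to DPPA2, DPPA4 and their tags found 0.306% to 1.23% of the domains without RING1B in 12 libraries, and 4.58% to 54.6% of those with RING1B. With RING1B-bearing domains weighted to the lengths of the others, the mean difference over 6 antibodies was -41.3 percentage points ± 7.68 (SD, n = 6 antibodies, replicates averaged), negative for 6 of 6. An exact two-sided permutation test over sign flips gave p = 0.0312, the smallest that 6 antibodies allow. The V5 antibody had the largest mean difference, -49.7, and the Flag monoclonal antibody the smallest, -27.3. Replicate 2 of the latter had 4904 domains in all and a difference of -4.44, and replicate 1 had -50.1. In 6 of 6 antibodies the difference was smaller in size in replicate 2 (-44.4 to -4.44) than in replicate 1 (-55.1 to -47.5). Weighted to CpG density in place of length, the mean difference was -7.00 (exact permutation p = 0.0312). The top decile of that weighting was open, as said above, so -7.00 is not a difference at equal CpG content. The antibodies share cells and targets, so that the p-value speaks of antibodies and not of cultures. With the sign foreseeable, the p-value adds little to the difference itself.

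Within both classes, CpG content went with DPPA4 and EP300. DPPA4 in both control arms was on 4.03% of members with a window of 10 or more CpG and on 0.0785% of those without, and EP300 in both lines on 0.509% and 0.0241%. With RING1B the same shares were 79.5% and 4.19% for DPPA4, and 54.8% and 3.34% for EP300. Above 10 CpG the classes still differed in CpG content, since 4766 of the 6681 members but 1599 of the 14112 RING1B-bearing domains had 10 to 14. In narrower bands DPPA4 was on 0.441% of members and 22.1% of RING1B-bearing domains at 10 to 14 CpG, on 2.55% and 64.5% at 15 to 19, on 16.2% and 87.9% at 20 to 29, and on 44.1% and 91.8% at 30 or more. EP300 was on 0.0839% and 13.1%, 0.0946% and 41.9%, 1.60% and 61.5%, and 6.78% and 63.6%. The 295 members with 30 or more CpG, 0.741% of all, thus carried DPPA4 far more often than other members. Lengths and MTF2 densities differed within the bands, with 25.8 and 39.0 reads per kb against 49.2 and 67.6 at 30 or more CpG, and were not adjusted for.

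Short motifs in the central 300 bases, searched on both strands, were counted in both classes. GCG, the core that MTF2 and its paralogs contact in DNA, was in 70.7% of members, 87.7% of RING1B-bearing domains and 85.2% of 35116 RefSeq promoters of 300 bases (GRCh38.p14). The AP-1 site TGACTCA, whose reverse complement is TGAGTCA, was in 5.05%, 2.71% and 4.95%. GGAATG, the TEAD core, was in 17.8%, 11.7% and 14%, and the core GATAAG in 10.3%, 5.68% and 6.36%. CACGTG was in 3.72%, 5.21% and 7.26%, and CAGGTG in 23.4%, 20.8% and 20.6%. The repeats CACACACA and GAGAGAGA were in 4.61% and 4.56% of members, and in 3.28% and 3.17% of RING1B-bearing domains. GC content differed between the classes as given above, and its part in these shares was not tested.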

How the data were processed

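Enriched regions of 30 antibody libraries were used, and 8 IgG libraries entered only through the counts given beside each domain. The authors trimmed reads with Trim Galore (0.6.6), aligned them to hg38 with BWA (0.7.13), used SAMtools (1.9) and Picard (2.6.0), and called regions per library with MACS2 (2.27.1 in the submitters' processing notes) and EPIC2 in bins of 100 bp. The deposited EPIC2 files hold whole-number read counts of library and IgG, a log2 fold change, a p-value, an FDR and a score, and the deposited MACS2 files hold a fold enrichment (a ratio), −log10 p-values and q-values and a score. No file was pooled over replicates.

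Regions on the autosomes and X were kept at the FDR (0.05) and log2 fold (1; MACS2, a fold of 2) limits of the study, and RING1B lists were used whole to exclude domains. Reads of merged MTF2 domains were summed over their EPIC2 domains, and density is reads in excess of IgG, scaled to library size, per kb. GENCODE 44 gave genes and hg38 the sequence. A position was assigned in the order protein-coding promoter, lncRNA promoter, exon, intron, lncRNA gene, intergenic. A gene with its list was counted by symbol. Named were the 10 densest promoter members, the 6 densest inside genes and 6 intergenic (by the worse rank of both lines), the 5 longest and the 5 genes with most members. For gene lists, reads are given for some of the first 3 genes by alphabet with a member at the promoter, and not for every list. Other exceptions are said. The members and lists were chosen with earlier results of these data known. H1299 differences were tested by exact permutation (numpy 2.4.6, pandas 2.3.3, scipy 1.17.1, Python 3.11.15), and the code was tested on simulated data. A blacklist of problem regions was not at hand.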

Additional observations from a re-analysis of the deposited data

How the results depend on the processing

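The number of domains without RING1B was within 1.5 times 39813 under 9 of 11 alternatives. It was 26498 with a log2 fold limit of 2 on MTF2 and 10438 where MTF2 also had to be called by MACS2 in both lines, which leave fewer MTF2 domains by construction. The share at promoters was 3.05% and 5.03% under these, 2.97% with RING1B taken from EPIC2 alone, 3.63% with RING1B from MACS2 alone, 2.49% with no RING1B region within 1 kb, 2.29% with the doxycycline RING1B libraries also excluded, and 2.01% with promoters of ± 500 bp. The share with EP300 in both lines was 0.150%, 0.707% and 0.0613% with RING1B from EPIC2 alone, from MACS2 alone and with doxycycline libraries excluded, 0.182% with MTF2 called by MACS2 too, and 0.0477% with EP300 from MACS2; the cause of these shifts beyond the change of lists was not tested. The H1299 difference kept its sign under 17 of 17 alternatives, from -51.7 to -7.00 percentage points. Its exact permutation p was 0.0312 in each, the smallest that 6 antibodies of 1 sign allow, and so says nothing of stability. Without 1 replicate it was -51.7 to -30.8. The smallest size came with weighting to CpG density, which did not make CpG content equal. Leaving out domains by their share of repeat-masked bases was not run, since the reference used here carries no mask. No paired analysis was possible because no groups of libraries are compared; the H1299 test itself sets 2 classes of domains against each other within each library. Most members rest on few reads, a median of 23 and 36, and no library had a replicate in H661.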
